A study of Homo sapiens with 15 samples.

Results

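The G2/M and mitosis genes are 38 genes whose products carry a cell from the end of DNA replication through division. They were listed by name, and their probes were found through the RefSeq accession that the array design gives each probe. Of the 38 genes, 37 had a matched probe and were tested among 26823 features, where a feature is a gene or an unnamed transcript. PLK1 had no matched probe and was not analysed here. The arrays measured total RNA of A2058, an established human malignant melanoma line, after 8 h of treatment. NP was given at 3 µM beside its vehicle DMSO, and MET at 5 mM and PHEN at 50 µM beside water, labelled W. The labels give NP as the agent, the series title speaks of neopetasin, metformin and phenformin, and the study's methods speak of PT (petasin) for this line, so NP is used here. Each of the 5 groups had 3 arrays numbered 1 to 3, and the groups carried no allele or further agent. The study's methods call the replicates biological, and the labels do not say how they were grown. A2058 is a single line, grown here in medium with serum, and the labels name no synchronisation of the cells.

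Mitosis is started by CDK1, a kinase that needs cyclin A or cyclin B and whose inhibitory phosphates are removed by CDC25 phosphatases. Aurora, polo-like and NEK2 kinases then separate the centrosomes and build the spindle, TTK and the other checkpoint proteins hold the anaphase-promoting complex until every chromosome is attached, and the midzone proteins divide the cell. Transcripts of these genes are low in G1 and high in G2 and M, because their promoters are repressed by the DREAM complex in resting cells and activated by B-MYB and FOXM1 with the MuvB core in G2. In RNA from a bulk culture, a smaller share of cells in G2 and M and less transcript in each such cell cannot be told apart.

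The promoters of the genes share sequence that the choice of genes did not use. RefSeq promoters of GRCh38.p14, running from 250 bases before to 50 bases after each gene start, were given for 31 of the 38 genes, PLK1 among them, with 41 starts in all, and those of AURKA, FOXM1, TTK, BUB3, UBE2C, TPX2 and BIRC5 were not used here. The CHR motif, read as TTTGAA on either strand (TTCAAA on the other), is the element that MuvB binds. It was found in 23 of the 41 promoters (56.1%), against 5324 of 35116 promoters of all genes (15.2%). In the other mitotic genes it was found in 38 of 61 promoters (62.3%), and in the genes of G1/S and DNA replication in 1 of 42 (2.38%). The CCAAT box, read as CCAAT or ATTGG and known as the binding site of NF-Y, was found in 31 of the 41 promoters (75.6%), against 34.6% of all promoters and 66.7% of those of the G1/S and replication genes. Both motifs stood in 20 of the 41 promoters (48.8%), against 5.9% of all promoters. The 2 motifs share no full match, but CCAAT and ATTGG can overlap each other, as they do in HMMR. The 4 promoters below are shown because their genes recur in the results: CCNB2, CDC20 and HMMR hold both motifs, and KIF20A holds CCAAT boxes alone. They are written 5′ to 3′ on the strand of the gene, with matches to either motif in capitals. All 4 lie on the plus strand, CCNB2 at chr15:59104896-59105195, CDC20 at chr1:43358731-43359030, HMMR at chr5:163460382-163460681 and KIF20A at chr5:138178862-138179161.
CCNB2: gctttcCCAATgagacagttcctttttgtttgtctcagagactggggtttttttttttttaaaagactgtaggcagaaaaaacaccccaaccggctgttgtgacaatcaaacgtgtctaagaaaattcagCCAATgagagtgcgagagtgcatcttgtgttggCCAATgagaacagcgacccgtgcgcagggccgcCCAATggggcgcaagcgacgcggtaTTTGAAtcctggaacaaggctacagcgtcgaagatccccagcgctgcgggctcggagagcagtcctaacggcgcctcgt
CDC20: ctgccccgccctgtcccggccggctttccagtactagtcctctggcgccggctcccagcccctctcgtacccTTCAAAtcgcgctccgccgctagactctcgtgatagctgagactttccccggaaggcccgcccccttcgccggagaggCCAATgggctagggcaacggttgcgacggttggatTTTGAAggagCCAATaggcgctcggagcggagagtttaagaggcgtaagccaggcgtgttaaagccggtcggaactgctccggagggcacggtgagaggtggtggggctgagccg
HMMR: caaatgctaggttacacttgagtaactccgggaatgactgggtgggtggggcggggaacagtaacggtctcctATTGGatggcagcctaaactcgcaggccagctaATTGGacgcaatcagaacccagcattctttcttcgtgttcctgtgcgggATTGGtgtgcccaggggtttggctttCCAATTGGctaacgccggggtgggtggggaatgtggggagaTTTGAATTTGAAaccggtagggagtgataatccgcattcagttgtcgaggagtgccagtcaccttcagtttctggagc
KIF20A: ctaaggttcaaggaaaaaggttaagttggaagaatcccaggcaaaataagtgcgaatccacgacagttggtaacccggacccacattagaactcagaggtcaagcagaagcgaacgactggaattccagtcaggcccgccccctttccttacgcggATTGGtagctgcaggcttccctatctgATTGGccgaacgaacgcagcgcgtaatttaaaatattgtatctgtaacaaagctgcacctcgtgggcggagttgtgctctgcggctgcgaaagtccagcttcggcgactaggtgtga
In CCNB2 the CHR began 29 bases before the start, and the nearest of its 4 CCAAT boxes began 54 bases before it. In CDC20 the nearer CHR began 65 bases before the start, between CCAAT boxes at 100 and 55 bases. In HMMR the CHR motifs began 28 and 22 bases before the start, and KIF20A had its CCAAT matches at 94 and 67 bases.

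Every one of the 37 genes was well above background on all 15 arrays. The arrays themselves were not alike. Arrays held between 25798 and 45005 probes well above background, and the W array of replicate 1 (45005 probes) and the MET array of replicate 1 (44367 probes) exceeded all others, of which the next had 37920. DMSO and NP arrays lay on slides of their own and W, MET and PHEN arrays on others, so vehicle and slide cannot be told apart, and each agent is compared with its own vehicle. Of the melanocyte markers, all 8 had probes, 7 were above background on all arrays, and TYR was so on 13 of 15. EPCAM, CDH1, COL1A2 and COL3A1, markers of epithelial cells and fibroblasts, were above background on no array. Other markers of those lists were above it: KRT8, KRT18, COL1A1, LUM and PDGFRB on all 15 arrays, DCN on 12 and KRT19 on 10, and so were the leukocyte genes PTPRC and CD14 on all 15 and CD3E on 11.

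With NP, the mitotic genes were slightly lower than with DMSO almost throughout, and none passed the test. The log2 fold change was negative for 34 of 37 genes, with a median of -0.13, against -0.01 over all 26823 features, of which 53.8% were negative. No member was called at an adjusted p of at most 0.05 and a fold of at least 1.5 in limma, where 0.0373% of all features were called. At an unadjusted limma p of at most 0.05, 2 members were lower (background 1.88%) and 0 higher (background 2.8%). AURKA and CDC20 were the 2, AURKA with a log2 fold change of -0.26 and CDC20 with one of -0.22. Lower in each of the 3 pairs were 28 of 37 members, against 18.9% of all features, and higher in each were BUB3 and CENPF, 2 of 37, against 14.3%. The members were measured on the same arrays and are not replicates, so counts of members here and below rest on 3 pairs. In 6 members, CDK1, AURKA, BUB1B, KIF11, CENPE and BIRC5, every NP array was below every DMSO array, as in 3.42% of all features. The median standard error of a single member's fold change was 0.13, and 0.08 with the replicate block set within each solvent. Of the 37 confidence intervals (95%), 2 reached a 1.5-fold decrease, those of KIF14 and KIF20A, and none reached a 1.5-fold increase. With the block set within each solvent the intervals lay between -0.43 and 0.33, and none reached a 1.5-fold change in either direction.

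With MET, 29 of 37 members had a negative log2 fold change against W, with a median of -0.11 where all features had 0. None was called, as no feature of the 26823 was (0%), and at an unadjusted limma p of at most 0.05 there were 0 lower members (background 1.07%) and 0 higher (background 1.38%). Lower in every pair were 21 members, against 20.3% of all features. Higher in every pair were CDC25B, CDC20 and TPX2, 3 of 37, against 22.2%. In 0 members was every MET array below every W array (background 2.28%). Without replicate 1, whose W and MET arrays stood apart, 27 members were lower in both pairs, against 35.2% of all features, and the median was -0.14.

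With PHEN the pairs disagreed. The median log2 fold change over the members was -0.04, that over all features -0.03, and 25 of 37 members were negative. No member was called (background 0.0261%), and 0 were lower (background 1.54%) and 0 higher (background 0.816%) at an unadjusted limma p of at most 0.05. In pair 1 the members' median difference was 0.14, with 35 of 37 higher, and in pairs 2 and 3 it was -0.12 and -0.15, with 30 and 27 lower. CENPE was thus the 1 member lower in all 3 pairs, against 14.8% of all features, and CDC25B, CDC25C, FOXM1 and BUB1B were the 4 that were higher in all, against 12.2%. CENPE was also the 1 member with every PHEN array below every W array (background 4.31%), and FOXM1 the 1 with every PHEN array above (background 3.83%). Pair 1 rests on the W array that stood apart. Without replicate 1 the median was -0.13 and 24 members were lower in both pairs, against 33.8% of all features. The part of that array in the result was not tested.

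Same-numbered arrays deviated together within a solvent but not across solvents, and the fit used one block for both. The limma errors, intervals and p values of single genes below come from that fit unless another setting is named. For DMSO and NP, replicates 1 and 2 shared a slide and were nearly as alike across numbers (r 0.24 and 0.29) as within them (r 0.31 and 0.33). Replicate 3 lay on another slide (r 0.65). With the block set within each solvent, 8 members were lower with NP at an unadjusted limma p of at most 0.05 (background 5.79%), 4 with MET (background 4.56%) and 0 with PHEN (background 4.12%). The 8 with NP were AURKA, KIF20A, CDC20, CDC25B, KIF4A, CENPE, CCNB1 and CENPA, and the 4 with MET were TTK, CKAP2, KIF14 and CENPE. None was called in that fit either, the lowest adjusted p of a member being 0.245 with NP, 0.474 with MET and 0.711 with PHEN. The methods' t-test of the study, run pair by pair on the same values at an unadjusted P of 0.05, had 8 lower members with NP (background 4.66%) and 11 with MET (background 5.76%), and 1 higher with PHEN (background 2.62%). With its fold threshold of 1.5 it called 0 members in every comparison, where it called 0.798%, 0.462% and 0.626% of all features with NP, MET and PHEN.

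**Figure D1:**
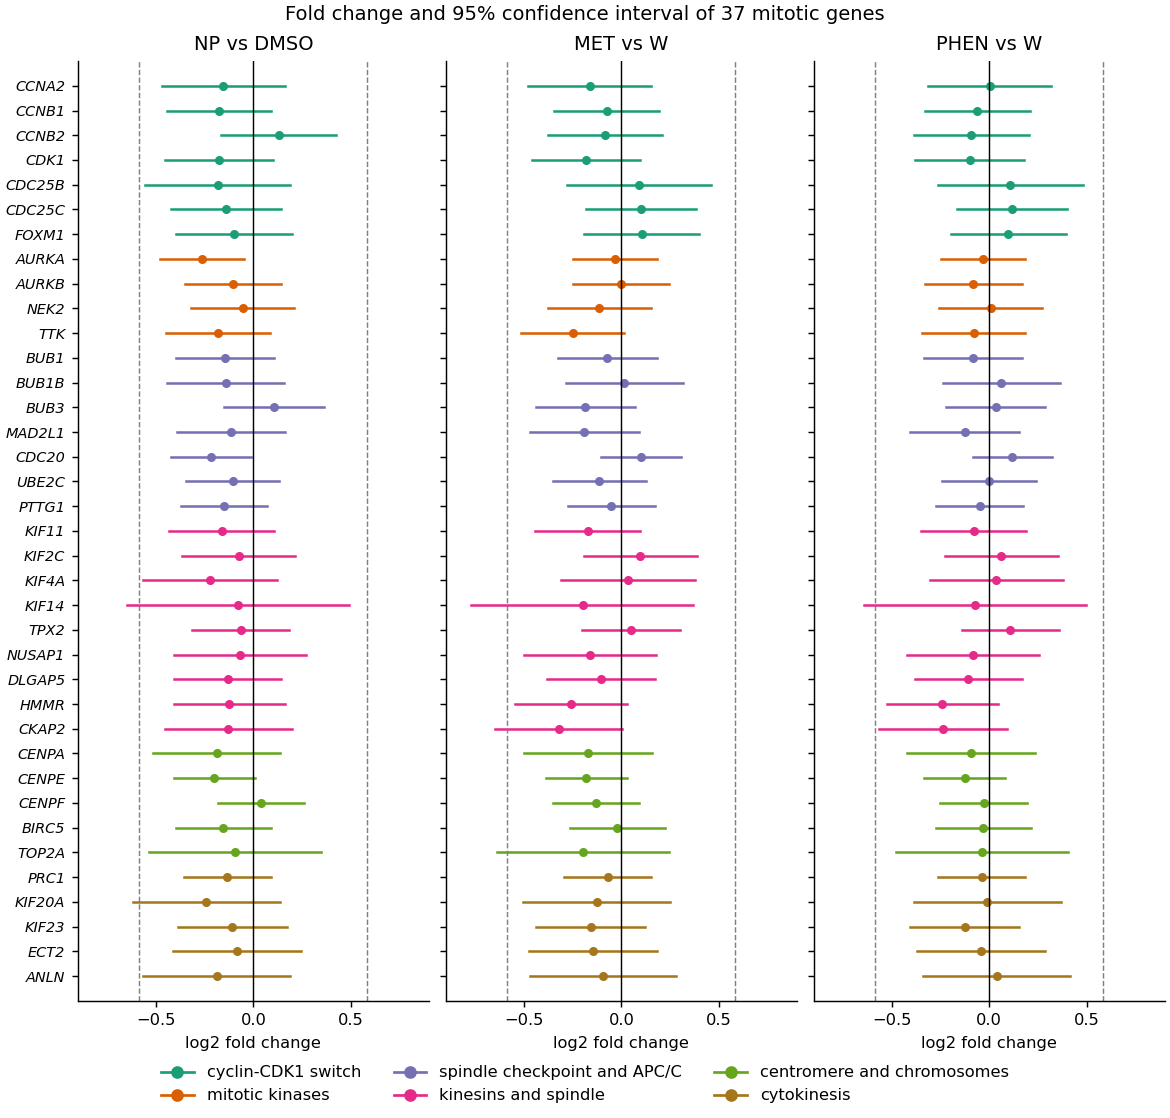
Log2 fold change (horizontal axis) of each of the 37 mitotic genes (vertical axis, coloured by role) in the 3 comparisons, as points with 95% confidence intervals from limma; dashed lines mark a fold of 1.5 in either direction. No point passes a dashed line, and in the NP panel 34 of 37 points lie left of 0.

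Among the genes of the switch into mitosis, CDK1 and its cyclins are described first. The log2 level of CDK1, relative to the array's 75th percentile as are all levels here, was 4.98, 4.81 and 4.89 on the DMSO arrays and 4.77, 4.75 and 4.63 on the NP arrays. These groups did not overlap, and the log2 fold change was -0.18 (SE 0.13, adjusted p = 1 in limma). CDK1 was at 4.50, 4.91 and 4.92 with W, at 4.43, 4.70 and 4.67 with MET and at 4.64, 4.74 and 4.65 with PHEN. The W array of replicate 1 was the low one, and the log2 fold changes were -0.18 with MET and -0.10 with PHEN (SE 0.13 for both). CCNB1, cyclin B1, was at 6.02, 5.82 and 6.06 with DMSO and at 5.83, 5.68 and 5.86 with NP. It was lower in each NP pair, but its groups overlapped and its log2 fold change was -0.18 (SE 0.12, adjusted p = 1 in limma). Against W (6.08, 6.36 and 6.23), CCNB1 was at 6.07, 6.26 and 6.12 with MET and at 6.22, 6.25 and 6.03 with PHEN. Those differences were smaller, with log2 fold changes of -0.07 and -0.06. Cyclin A2 (CCNA2) had -0.15 with NP, -0.16 with MET and 0.00 with PHEN.

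CCNB2, cyclin B2, departed from this. It had the highest log2 fold change of the members with NP, 0.13 (SE 0.13), and its level was 5.52, 5.34 and 5.89 with DMSO and 5.51, 5.71 and 5.92 with NP. That value came from pair 2, with a difference of 0.37, as pairs 1 and 3 differed by -0.02 and 0.03. FOXM1, the transcription factor that activates the G2/M genes, was at 3.46, 3.38 and 3.90 with DMSO and at 3.33, 3.36 and 3.75 with NP (log2 fold change -0.10, SE 0.13). On the other slides FOXM1 was at 3.68, 3.64 and 3.65 with W, at 3.62, 3.81 and 3.84 with MET and at 3.79, 3.77 and 3.70 with PHEN. All PHEN arrays were above all W arrays, with a log2 fold change of 0.10 (SE 0.13), and MET had 0.11. The phosphatases that activate CDK1 had the same signs: CDC25B had -0.18 with NP, 0.09 with MET and 0.11 with PHEN, and CDC25C had -0.14, 0.10 and 0.12. None of these passed the test (adjusted p = 1 in limma), and the value of CDC25C with PHEN was -0.02 without the W and MET arrays of replicate 1.

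AURKA, the kinase of centrosomes and spindle poles, was the member furthest below its vehicle with NP. Its log2 level was 4.36, 4.30 and 4.37 with DMSO and 4.11, 4.14 and 3.99 with NP. The highest NP array was below the lowest DMSO array. The limma fit gave a log2 fold change of -0.26 (95% confidence interval -0.48 to -0.05, unadjusted p 0.0214, adjusted p = 0.973). With the block set within each solvent the interval was -0.43 to -0.10 (adjusted p = 0.245 in limma). With W, AURKA was at 4.36, 4.68 and 4.45, with MET at 4.35, 4.56 and 4.48 and with PHEN at 4.45, 4.54 and 4.40. These 3 groups overlapped throughout, with log2 fold changes of -0.03 for both agents. TTK, the checkpoint kinase MPS1, had -0.18 with NP and -0.25 with MET (SE 0.12). Its level was 1.80, 2.27 and 2.11 with W and 1.60, 1.92 and 1.92 with MET, lower in each pair but overlapping between groups, and PHEN had a log2 fold change of -0.08. AURKB, the kinase of the chromosomal passenger complex, had -0.10, 0.00 and -0.08 with NP, MET and PHEN, and NEK2, which separates the centrosomes, had -0.06, -0.11 and 0.01. A second NEK2 probe gave -0.23 with NP.

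**Figure D2:**
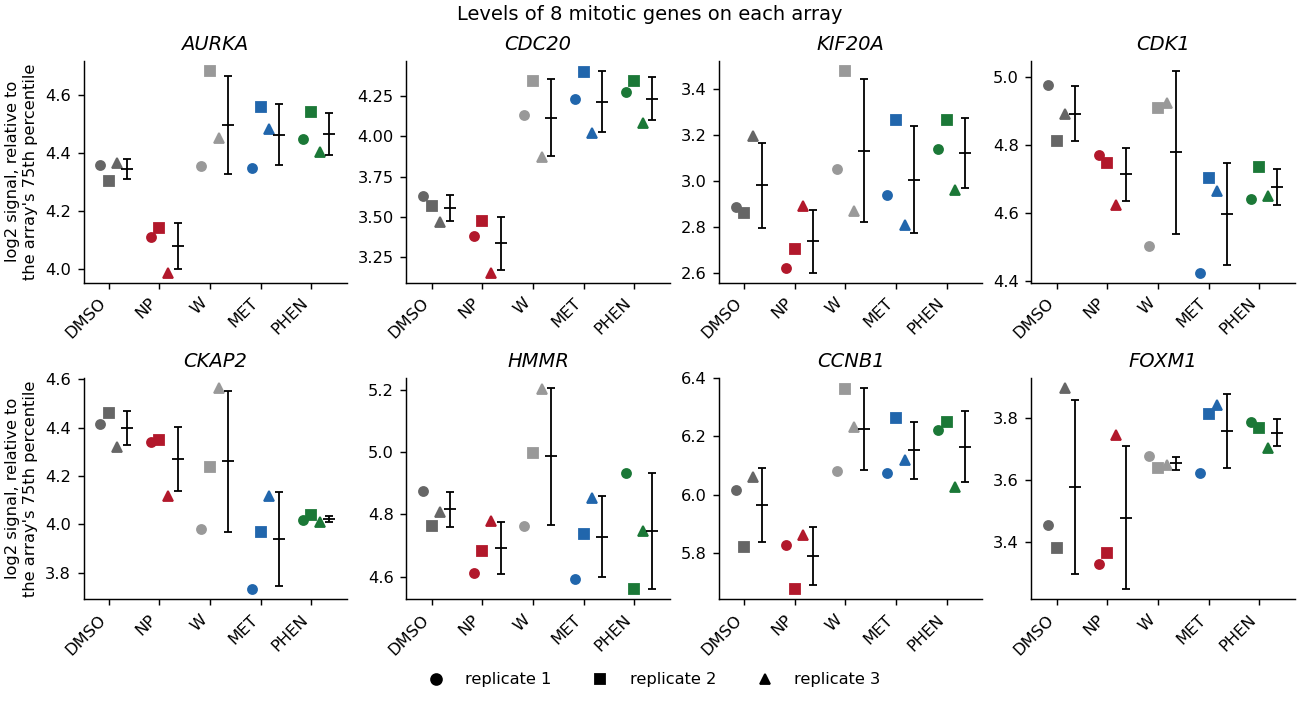
Log2 level relative to the array's 75th percentile (vertical axis, scaled for each gene) of 8 mitotic genes on each of the 15 arrays, by group (horizontal axis) and replicate (circle, square and triangle), with the mean and SD of the 3 arrays as a bar beside them. AURKA and CDK1 show NP arrays below all DMSO arrays, and the circle of W, replicate 1, is the lowest of its group in all panels but those of CDC20, KIF20A and FOXM1.

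Of the checkpoint and its target, CDC20 stood out. CDC20 activates the anaphase-promoting complex and is held by the checkpoint, and it was named after its value was seen. Its log2 level was 3.63, 3.56 and 3.46 with DMSO and 3.38, 3.47 and 3.15 with NP. It was lower in each pair, with an overlap of 1 NP array with 1 DMSO array. The limma fit gave a log2 fold change of -0.22 (SE 0.09, unadjusted p 0.0386, adjusted p = 1). With the block set within each solvent the SE was 0.07 (adjusted p = 0.309 in limma). With W, CDC20 was at 4.13, 4.35 and 3.87, with MET at 4.23, 4.40 and 4.02 and with PHEN at 4.28, 4.34 and 4.09. It was thus higher in each MET pair and in 2 of 3 PHEN pairs, with log2 fold changes of 0.10 and 0.12 (SE 0.09 for both). BUB3, a subunit of the mitotic checkpoint complex, ran the other way, with 0.11 for NP and -0.19 for MET. Its second probe gave -0.15 with NP, so the sign with NP depends on the probe. BUB1 and BUB1B, kinetochore checkpoint proteins, had -0.15 and -0.14 with NP, and MAD2L1 (MAD2) had -0.11 with NP and -0.19 with MET. UBE2C, the ubiquitin-conjugating enzyme of the anaphase-promoting complex, had -0.11 with both NP and MET, and PTTG1, the separase inhibitor securin, had -0.15 and -0.05.

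The spindle genes held the lowest values with MET and PHEN. CKAP2, a microtubule-associated protein of the spindle poles, was at 3.98, 4.24 and 4.56 with W, at 3.73, 3.97 and 4.12 with MET and at 4.02, 4.04 and 4.01 with PHEN. The W arrays spread widely and overlapped with both agents. The log2 fold change of CKAP2 was -0.32 with MET (95% confidence interval -0.65 to 0.01, adjusted p = 1 in limma), -0.24 with PHEN and -0.13 with NP. With the block set within each solvent, the interval with MET was -0.56 to -0.08 (adjusted p = 0.479 in limma). The PHEN value of CKAP2 was -0.38 without replicate 1 and -0.08 without replicate 3, and its second probe gave -0.08. HMMR, the spindle protein RHAMM, was at 4.76, 5.00 and 5.20 with W, at 4.59, 4.74 and 4.85 with MET and at 4.93, 4.56 and 4.75 with PHEN. It was lower in each MET pair, and in PHEN pairs 2 and 3 by -0.44 and -0.46 after a difference of 0.17 in pair 1. The log2 fold changes of HMMR were -0.26 with MET and -0.24 with PHEN (SE 0.13 for both), and -0.12 with NP. The PHEN value of HMMR was -0.44 without replicate 1, -0.14 without replicate 2 and -0.13 without replicate 3.

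The kinesins KIF11 (Eg5), which pushes the spindle poles apart, and KIF4A, a chromokinesin, had -0.16 and -0.22 with NP. KIF4A was lower in each NP pair, and its groups overlapped at 3.13, 2.80 and 2.62 with DMSO and 2.85, 2.70 and 2.32 with NP. With MET and PHEN, KIF4A had 0.04 and 0.04 and KIF11 -0.17 and -0.08. KIF2C, which shortens microtubules, had -0.08 with NP, 0.10 with MET and 0.06 with PHEN, and TPX2, which activates AURKA, had -0.07, 0.05 and 0.11. KIF14, a midbody kinesin, had the widest intervals (SE 0.26) around -0.08, -0.20 and -0.07. Its SE was 0.08 with the block set within each solvent. NUSAP1 and DLGAP5, both spindle proteins, had -0.07 and -0.13 with NP, -0.16 and -0.10 with MET and -0.08 and -0.11 with PHEN.

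At the centromeres, CENPE, the kinetochore kinesin, was below its vehicle in all 9 pairs. It was not among the genes set to be named in full, and the share of all features lower in all 9 was not computed. In single comparisons 18.9%, 20.3% and 14.8% of all features were lower in every pair of NP, MET and PHEN. The log2 level of CENPE was 2.98, 2.83 and 3.15 with DMSO, 2.77, 2.76 and 2.81 with NP, 2.63, 2.67 and 2.75 with W, 2.41, 2.48 and 2.63 with MET and 2.56, 2.58 and 2.53 with PHEN. The groups did not overlap with NP or PHEN, and did with MET. Its log2 fold changes were -0.20, -0.18 and -0.13 (SE 0.09 for each, adjusted p = 1 in limma), and the MET and PHEN values share the W arrays. CENPA, the histone variant of centromeres, had -0.19, -0.17 and -0.09, and CENPF had 0.04, -0.13 and -0.03. BIRC5 (survivin), a subunit of the chromosomal passenger complex, was at 7.62, 7.50 and 7.48 with DMSO and at 7.47, 7.34 and 7.33 with NP. Its groups did not overlap, and its 3 pairs differed by -0.15, -0.16 and -0.15 (log2 fold change -0.16, SE 0.11, adjusted p = 1 in limma). BIRC5 was at 7.54, 7.83 and 7.88 with W, 7.64, 7.77 and 7.78 with MET and 7.70, 7.74 and 7.72 with PHEN, with log2 fold changes of -0.02 and -0.03. TOP2A, the topoisomerase that untangles chromosomes, had a larger error (SE 0.20). It was at 4.17, 4.05 and 3.78 with DMSO, 3.98, 4.04 and 3.69 with NP, 3.13, 3.70 and 3.63 with W, 2.83, 3.45 and 3.59 with MET and 3.36, 3.54 and 3.47 with PHEN. The groups overlapped in every comparison, and the log2 fold changes were -0.10, -0.20 and -0.04.

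In the cytokinesis group all 5 genes had a negative log2 fold change with NP and with MET. KIF20A (MKLP2), the midzone kinesin, was at 2.89, 2.86 and 3.20 with DMSO and at 2.62, 2.70 and 2.89 with NP. It was lower in each NP pair with an overlap between groups, and its log2 fold change was -0.24 (SE 0.17, adjusted p = 1 in limma). With the block set within each solvent the SE was 0.08 (adjusted p = 0.304 in limma). With MET, KIF20A had -0.13 and with PHEN -0.01. KIF23 (MKLP1), a subunit of centralspindlin, had -0.11, -0.16 and -0.13 with NP, MET and PHEN. The PHEN value of KIF23 was -0.21 without replicate 1 and -0.05 without replicate 3. PRC1, which bundles midzone microtubules, had -0.13, -0.07 and -0.04. ECT2, the exchange factor for RhoA, had -0.08 with NP, higher in pair 2 and lower in the others, and -0.15 with MET, and ANLN, the scaffold of the contractile ring, had -0.19 and -0.09.

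The effects were then set against each other. The agents' doses were 3 µM, 5 mM and 50 µM, so the differences are between treatments as given. No member and no feature was called (0% of 26823 features in each) for the NP effect minus the MET effect, the NP effect minus the PHEN effect or PHEN minus MET. At an unadjusted limma p of at most 0.05 there was 1 member of 37 for NP minus MET (background 2.78%), 1 for NP minus PHEN (background 2.43%) and 0 for PHEN minus MET (background 2.87%), so the members' share was near that of all features. The member was CDC20 both times, with a difference of -0.32 between the NP and MET effects (95% confidence interval -0.61 to -0.03, adjusted p = 1) and of -0.34 between the NP and PHEN effects (95% confidence interval -0.62 to -0.05, adjusted p = 1). For PHEN minus MET the members' differences had a median of 0.05, and their confidence intervals reached from -0.44 to 0.70. The intervals of the differences from NP reached from -0.80 to 0.92 and from -0.82 to 0.80. In that fit, with one replicate block for both solvents, differences near a 1.5-fold change were thus not measurable for every member. With the block set within each solvent, the intervals reached from -0.54 to 0.55 for NP minus MET and from -0.56 to 0.53 for NP minus PHEN. For PHEN minus MET they reached from -0.28 to 0.43, and none of these intervals reached a 1.5-fold change in either direction.

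Further genes of the pathway were described from lists of their own. Of 62 other mitotic genes tested, 44 were negative with NP, 51 with MET and 48 with PHEN, with median log2 fold changes of -0.09, -0.11 and -0.05, and none was called. Lower in every pair were 34 of them with NP (54.8%), 27 with MET (43.5%) and 8 with PHEN (12.9%), against 18.9%, 20.3% and 14.8% of all features. CDCA3, an adaptor that promotes mitotic entry, was the lowest with NP at -0.28 (SE 0.12, adjusted p = 1 in limma), and FBXO5 (EMI1), an inhibitor of the anaphase-promoting complex, was the lowest with MET at -0.30 (SE 0.11, adjusted p = 1 in limma). The 18 condensin and cohesin genes had medians of -0.03, -0.10 and -0.02, the 15 subunits of the anaphase-promoting complex -0.04, -0.04 and 0.02, and the 15 MuvB, DREAM and MYB genes -0.02, -0.06 and -0.01. None of these was called. NFYB, a subunit of the CCAAT-binding factor NF-Y, had the lowest value of the last list with MET, -0.49 (SE 0.17, adjusted p = 1 in limma), and MYBL2 (B-MYB) had -0.15 with NP.

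The 40 genes of G1/S and DNA replication, which peak earlier in the cycle, had medians of -0.07, -0.07 and -0.02. Lower in every pair were 15, 19 and 6 of them (37.5%, 47.5% and 15%), against 18.9%, 20.3% and 14.8% of all features. The lowest of them was CDC6, a loader of the replicative helicase, with NP (-0.36), RRM2, a subunit of ribonucleotide reductase, with MET (-0.38) and E2F8, a repressor of E2F targets, with PHEN (-0.31). Of 17 p53 targets and CDK inhibitors none was called, 11 were negative with NP, and the medians were -0.03, -0.01 and -0.03. BBC3 (PUMA), a promoter of apoptosis, had 0.48, 0.40 and 0.42 with NP, MET and PHEN, higher in each pair. GADD45A, a growth arrest gene, had 0.32 with NP, and the antiproliferative gene BTG2 had the lowest NP value, -0.47, lower in each pair. CDKN1A (p21), an inhibitor of CDKs, had the highest MET value, 0.48, from pairs of 0.63, 0.92 and -0.10 on a probe above background on 10 of 15 arrays. The lowest were MDM2, the ubiquitin ligase of p53, with MET (-0.27) and RRM2B, a subunit of ribonucleotide reductase, with PHEN (-0.19).

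**Figure D3:**
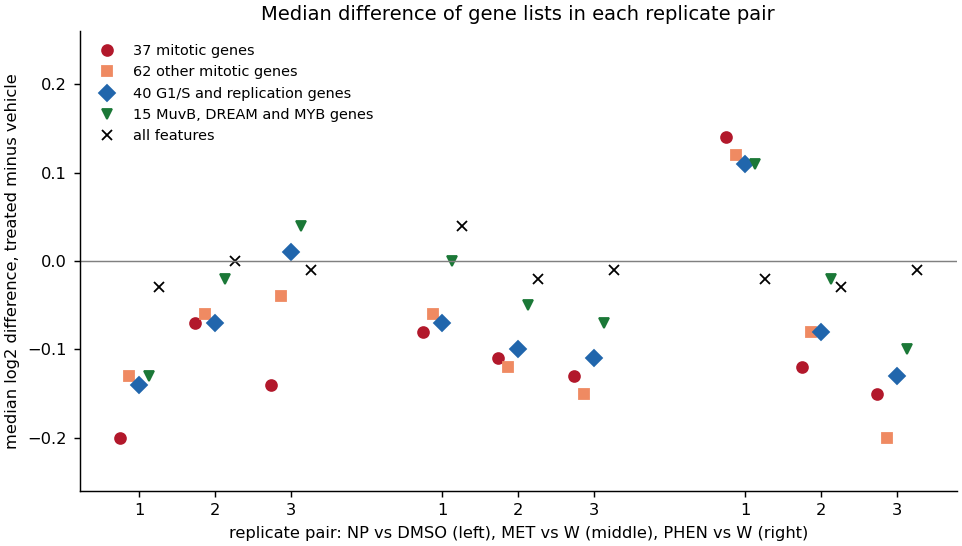
Median log2 difference between treated and vehicle array (vertical axis) of 5 gene lists in each replicate pair of the 3 comparisons (horizontal axis). The 37 mitotic genes lie at -0.20, -0.07 and -0.14 in the NP pairs and at -0.08, -0.11 and -0.13 in the MET pairs, and in PHEN pair 1 all 4 cell cycle lists lie above 0 while all features lie at -0.02.

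The members were also described by their promoters, with no test. The 19 tested members with a CHR match in a promoter had median log2 fold changes of -0.13 with NP, -0.15 with MET and -0.07 with PHEN. The 11 without a CHR match had -0.15, -0.07 and -0.05, and members whose promoters were not given are in neither group.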

How the data were processed

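Total RNA of 15 A2058 samples was labelled with Cy3 and hybridised by the authors to single-colour Agilent arrays. The deposited scanner files hold background-corrected processed signal as intensity per spot on a linear scale, written by Feature Extraction 10.7.3.1 per the file headers (9.1 per the submitters' processing notes), and a deposited table holds the authors' log2 values normalized to the 75th percentile and floored at 4. The files were read with Python 3.11.15 and pandas 2.3.3, spots of a probe were averaged without outlier spots, and log2 intensity minus the array's 75th percentile was taken. A probe was kept when some group had it well above background on each of its 3 arrays and no fewer than 8 arrays gave it a value, and the brightest probe stood for a gene; 31104 of 33080 RefSeq probes were matched to a gene by accession. Precision is limited by the number of arrays, and no spot was saturated. limma 3.58.1 in R 4.3.3 fitted group and replicate number over all 15 arrays, with Benjamini-Hochberg adjustment over 26823 features, and a call needed an adjusted p of at most 0.05 and a fold of at least 1.5. Same-numbered arrays deviated together within a solvent (r from 0.22 to 0.86 over 12 array pairs) but not across solvents (r from -0.19 to 0.23). Arrays of other numbers within a solvent had r from -0.78 to 0.29 over 24 array pairs. Within each solvent, replicates 1 and 2 lay on 1 slide and replicate 3 on another, so number and slide cannot be fully told apart. Pairing was read from the numbers in the labels. Named with values are the 3 largest changes in each direction per comparison, CCNB1, CDK1, AURKA, FOXM1, TOP2A and BIRC5 (PLK1, also in the rule, had no matched probe), and the largest changes and smallest p in other lists. CENPE was added outside that rule. The members and lists were chosen with earlier results of these data known. Alternatives were other backgrounds, normalizations, filters, blocks and left-out replicates.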

Additional observations from a re-analysis of the deposited data

Results flagged for a closer look

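Members were marked where every replicate pair moved one way with NP and every pair moved the opposite way with MET or PHEN. The difference between the effects was then tested in limma. The marking used the same values as the test, so a difference was built into the marked members. None of the differences passed (adjusted p = 1 in limma for each). Against MET, the NP effect minus the MET effect on the log2 scale was -0.28 for CDC25B, 0.29 for BUB3, -0.32 for CDC20 and 0.17 for CENPF. Against PHEN, the NP effect minus the PHEN effect was -0.29 for CDC25B, -0.26 for CDC25C, -0.20 for FOXM1 and -0.21 for BUB1B. With the block set within each solvent, 4 members had an unadjusted limma p of at most 0.05 against MET, CDC20 (0.0118), CDC25B (0.0132), BUB3 (0.0345) and KIF4A (0.0430), beside 9.75% of all features. Against PHEN there were also 4, CDC20 (0.00913), CDC25B (0.00968), KIF4A (0.0421) and CDC25C (0.0432), beside 7.25% of all features, and for PHEN minus MET there was 1, BUB3 (0.0270), beside 8.37%. Their lowest adjusted p in limma was 0.484, and the members' share was close to or below that of all features for each difference. The sign of BUB3 and that of CENPF with NP were opposite on their second probes. Groups of 3 arrays are too small for an outlier test.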

How the results depend on the processing

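The members' median log2 fold change was negative under every alternative run for NP (-0.17 to -0.12) and MET (-0.14 to -0.09), but ran from -0.13 to 0.04 for PHEN. No member was called under any alternative except with DMSO in place of W as comparator, where vehicle and slide cannot be told apart: 6 members were called with MET and 4 with PHEN, beside 17% and 10.3% of all features. There, 11 members were lower and 4 higher at an unadjusted limma p with MET, and 7 and 4 with PHEN. Of all features, 40% with MET and 33.3% with PHEN were at that p in either direction. In every pair, 12 members were lower and 7 higher with MET, and 12 and 9 with PHEN. The share of all features that moved one way in every pair was not computed for that comparator, so these counts have no background. The log2 fold changes turned for CDC25C (-0.10), CCNB1 (0.19), AURKA (0.12) and BIRC5 (0.19) with MET. They also turned for CDC25C (-0.08), CCNB1 (0.20), AURKA (0.12) and BIRC5 (0.19) with PHEN. Members lower at an unadjusted p are given beside the share of all features at that p in either direction. With NP they numbered 1 with no replicate block (3.43%), 8 with the replicate block nested in the solvent (11.5%) and 5 with a slide term (9%). They numbered 0 with no filter on dim probes (2.42%), 8 by the methods' t-test (7.57%) and 1 without the W and MET arrays of replicate 1 (5.08%). That last setting was chosen after seeing the data. With MET they numbered 4 with the nested replicate block (9.29%), 2 with a slide term (7.36%) and 3 with quantile normalization (3.14%). There was 1 with normexp (1.67%), the authors' table (2.85%) or probes above background on all arrays (3.41%). They numbered 6 in the compared groups alone (15%), 11 by the methods' t-test (11.7%) and 2 without the W and MET arrays of replicate 1 (2.51%). With PHEN the methods' t-test had 1 higher (5.22%), and 3 were lower without those arrays (2.7%). Higher in every NP pair were 1 member with normexp and 0 with the mean of a gene's probes, which turned BUB3 (-0.02). Without the W and MET arrays of replicate 1, 5 members were higher in the 2 MET pairs that remained. Lower in every PHEN pair were 2 with normexp, 6 with quantile normalization and 2 with the mean of probes. Without those arrays, 24 were lower in the 2 PHEN pairs that remained, where 33.8% of all features were, and CDC25C turned (-0.02). Leaving out one replicate at a time, the lower members at an unadjusted p ranged from 0 to 0 with NP, and 0 to 1 with MET and with PHEN. The share of all features at that p ranged from 2.62% to 5.68% with NP. It ranged from 0.805% to 4.16% with MET and from 1.41% to 4.88% with PHEN. The members higher in both pairs that remained ranged from 3 to 5 with MET and 4 to 9 with PHEN. Those lower in both remaining PHEN pairs ranged from 1 to 24. Agreement of 2 pairs is a looser rule than agreement of 3, which 14.8% of all features met for lower values with PHEN. With a replicate or those arrays left out, log2 fold changes that turned ranged from -0.06 to 0.01 for AURKA and -0.08 to 0.02 for BIRC5 with MET, and from -0.11 to 0.02 for AURKA, -0.16 to 0.04 for BIRC5, -0.16 to 0.01 for CCNB1, -0.24 to 0.03 for TOP2A and -0.02 to 0.18 for CDC25C with PHEN. The causes were not tested.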

Other observations

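Some values of the other cell cycle lists rested on 1 pair. KIF18A, a kinesin that limits microtubule length, had the highest log2 fold change of the other mitotic genes with NP, 0.42, from pairs of 1.18, 0.10 and -0.01. NCAPH, a condensin subunit, had 0.38 with NP from pairs of -0.13, 1.17 and 0.10, and LIN52, a MuvB subunit, had 0.37 from pairs of 0.93, 0.28 and -0.10.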
